A study of Mus musculus with 12 samples.

Results

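PRDM genes encode transcription regulators that carry a PR domain, a relative of the SET domain of histone methyltransferases, together in most cases with zinc fingers that bind DNA. Some members modify histones themselves, while others recruit methyltransferases, deacetylases, and Polycomb proteins to their targets. In the developing nervous system, the family is known for setting progenitor domains and neuronal fates, and for maintaining neural stem cells. The expression of 9 members, Prdm2, Prdm4, Prdm8, Prdm10, Prdm11, Prdm12, Prdm13, Prdm15, and Prdm16, was followed in astrocytes of the mouse cerebellum at the P1, P7, P14, and P28 time points. They were taken by symbol from the 24421 entries of the expression table, all 9 had an entry, and all 9 passed the filter on low values (at least 10 normalized counts in at least 3 libraries). Prdm12 and Prdm13 were chosen because of their values in these libraries, Prdm12 for its restriction to P1 and Prdm13 for its loss after P7. These 2 genes are therefore described without a test, while the other 7 were taken by family name and were tested.

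The cells were GFP-positive cells sorted from the dissociated cerebellum of Aldh1l1-GFP mice, a reporter line in which regulatory sequence of the astrocyte gene Aldh1l1 drives GFP. There were 3 libraries at each of postnatal days 1, 7, 14, and 28, which makes 12 in all. Every group carried the same reporter, no group was treated, and mice of both sexes were used. Whether a library came from 1 animal or from pooled animals is not given in the sources used here, so the p-values measure only the spread between libraries.

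Sequencing gave between 6399499 and 14733985 reads on genes per library. Values are counts that the authors normalized for library size, called normalized counts here. A level of 3 reads, used as the floor for a gene without reads, corresponds to a normalized count between 1.85 and 4.38, depending on the library. All 11 astrocyte markers were detected, with summed normalized counts between 66096 and 82185 in the P1 libraries, 30471 and 57917 for P7, 153838 and 196154 for P14, and 358432 and 420422 for P28. They did not move together. From P1 to P7, Aldh1l1, Aldoc, Fabp7, Gja1, and Slc1a2 were lower, and Gfap and S100b higher (limma, adjusted p under 0.05). Aldh1l1 (means of 5008 at P1 and 2921 at P28) and Fabp7 (15869 and 5215) were lower at P28 than at P1. The other 9 were higher (limma, adjusted p under 0.05). The 7 oligodendrocyte lineage markers summed to 7086 to 18175 at P1 and P7 and to 69655 to 222301 at P14 and P28. From P14 on most of this sum was Mbp, with means of 146188 at P14 and 83065 at P28, against 647 at P1. Cspg4, Olig1, Olig2, and Pdgfra were lower at P28 than at P1, and Mbp and Mog higher (limma, adjusted p under 0.05). Of 5 red blood cell genes the 4 globins were listed at 0 throughout and Alas2 had 2.92 to 117.8. P7 replicate 2 had the fewest reads and the highest sum of endothelial and pericyte markers (8873, against at least 2142 in the other P7 libraries), and P1 replicate 2 also had the highest such sum of its age (3617, against 1314 and 1398). P1 replicate 2 was low for several of the neuronal genes described with Prdm13, and for some other genes. The sexes were not balanced over age. The Y-linked gene Ddx3y reached 624 to 837 in the 3 P1 libraries, in P7 replicate 2 (709), and in P28 replicates 1 and 2 (1041 and 645). It did not exceed 6.76 in the other 6 libraries, which held the Xist RNA of the inactive X chromosome at 18254 to 25471.

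Sequences upstream of a transcript start of the 3 members with the most age-restricted levels are shown first, to place these genes in the genome. Each is the 250 bases before a RefSeq transcript start on GRCm38.p6, in the direction of transcription, with the letters CAGCTG in capitals where they occur. The Prdm8 sequence is chr5:98180619-98180868 (+ strand), Prdm12 is chr2:31639787-31640036 (+ strand), and Prdm13 is chr4:21685964-21686213 (- strand).
Prdm8: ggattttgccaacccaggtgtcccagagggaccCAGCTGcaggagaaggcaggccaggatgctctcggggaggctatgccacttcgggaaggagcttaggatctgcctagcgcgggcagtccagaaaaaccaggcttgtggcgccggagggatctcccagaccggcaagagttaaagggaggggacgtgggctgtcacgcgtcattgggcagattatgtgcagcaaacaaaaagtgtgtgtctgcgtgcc
Prdm12: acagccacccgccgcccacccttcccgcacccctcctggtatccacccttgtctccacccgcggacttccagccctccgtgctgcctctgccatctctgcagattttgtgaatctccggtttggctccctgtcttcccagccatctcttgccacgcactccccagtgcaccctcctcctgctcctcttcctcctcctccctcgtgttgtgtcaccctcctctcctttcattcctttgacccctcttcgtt
Prdm13: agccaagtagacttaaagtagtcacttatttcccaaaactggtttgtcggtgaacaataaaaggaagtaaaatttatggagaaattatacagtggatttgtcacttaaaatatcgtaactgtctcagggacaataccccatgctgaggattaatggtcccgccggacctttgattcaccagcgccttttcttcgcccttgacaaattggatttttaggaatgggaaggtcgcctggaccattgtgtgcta
The Prdm8 window precedes a transcript that starts inside the GENCODE gene span, while the other 2 windows precede the whole gene. These windows hold no exonic base of their own gene in GENCODE M21. CAGCTG and CAGATG, which are both of the E-box type bound by basic helix-loop-helix factors, and CCAAT were searched on both strands. The CAGCTG letters occurred 1 time upstream of Prdm8 and in neither of the other 2 windows, while 13.1% of all 32536 promoter windows of this length held them. CCAAT occurred 1 time upstream of Prdm8 and of Prdm13, against 33.8% of all windows, and CAGATG, found in 14.4% of all windows, occurred in none of the 3. The Prdm8, Prdm12, and Prdm13 windows had 11, 10, and 7 CpG dinucleotides, around the middle of all promoters, where the median was 6. Higher CpG numbers of 22 to 34 were found upstream of Prdm11, of Prdm16, and in at least 1 window each of Prdm4 and Prdm15. Of the members, 8 had such a sequence, and Prdm2 did not. A match is a description of the letters only.

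Prdm12 was a P1 gene in these libraries. It specifies the progenitors of a ventral interneuron class in the spinal cord and is needed for pain-sensing neurons. The gene is on chromosome 2 (31640037 to 31655795, + strand, GRCm38) with 5 merged exon blocks. Its normalized counts at P1 were 269, 279, and 190 in replicates 1 to 3 (mean 246 ± 48.6 SD, n = 3), resting on 1078 reads. At P7 they were 7.96, 0, and 0, with all 10 reads in replicate 1. At P14, all 3 libraries were at 0, and at P28 a single read gave 1.35 in replicate 3. The P1 libraries thus lay far above every later library. The ratio of P1 to P7 was 82.1, with an interval of 44.5 to 172 at 95% confidence that covers counting error only, as do the other ratios here. P14 was at least 76.8-fold lower than P1 against the floor of 3 reads per library. Prdm12 passed the filter on low values through its P1 libraries alone. P1 libraries and 1 P7 and 2 P28 libraries were Ddx3y-positive, and in those 3 later ones Prdm12 was at 0. An antisense gene, Gm13425, shares 200 exonic bases with Prdm12, and as the use of strand is not stated, reads from these bases cannot be told apart.

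Prdm13 was detected at P1 and P7 and was lost afterwards. It acts downstream of Ptf1a in neural progenitors, where it favours GABAergic over glutamatergic fates. The gene lies on chromosome 4 (21677480 to 21685963, - strand) with 4 merged exon blocks. At P1 its normalized counts were 125, 2.14, and 180, so replicate 2 stood far below the other 2 libraries (3 reads against 203 and 238). At P7 they were 519, 200, and 487 (mean 402 ± 176 SD, n = 3). All P7 libraries were above all P1 libraries, although P7 replicate 2 was close to P1 replicate 3. The P7 minus P1 difference was 3.16 on the log2(normalized count + 1) scale, and 1.30 without P1 replicate 2. Among the Ddx3y-positive libraries, the only P7 value was the 200 of replicate 2. At P14 no library had a read, which makes P14 at least 125.5-fold lower than P7 and at least 32.0-fold lower than P1. At P28 1 read was found, and the ratio of P7 to P28 was 983 (interval 176 to 38868). As this is bulk RNA, fewer cells that express a gene and less RNA per cell cannot be told apart, here and for all genes below.

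**Figure D1:**
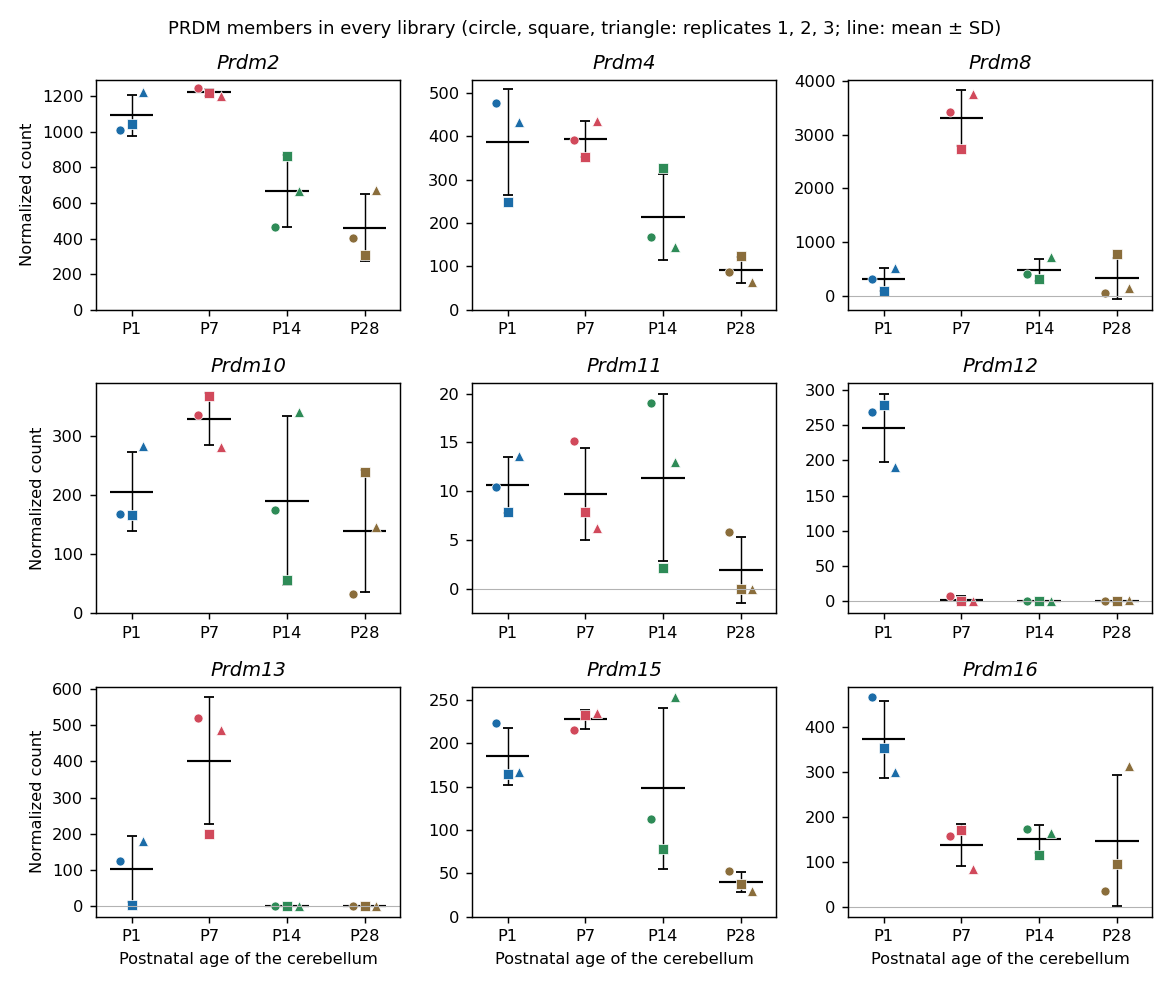
Normalized counts (vertical axis, linear) of the 9 members at P1, P7, P14, and P28, with circles, squares, and triangles for replicates 1, 2, and 3 and a line with bars for the mean ± SD. Prdm12 lies at 190 to 279 in the P1 libraries and at 0 to 7.96 later, Prdm13 at 200 to 519 at P7 and 0 to 1.46 from P14, and Prdm8 peaks at P7 with 2729 to 3755.

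Prdm8 peaked at P7 and was then the member with the highest level. It forms a repressor complex with the helix-loop-helix factor Bhlhe22 and is known for guiding axons of cortical and other neurons. The gene is on chromosome 5 (98167198 to 98188991, + strand). Its normalized counts were 308, 97.2, and 519.5 at P1 and 3422, 2729, and 3755 at P7. They returned to 405, 318, and 717 at P14, and were 62.8, 771, and 143 at P28. The P7 libraries did not overlap with those of any other age, while P1, P14, and P28 overlapped with each other. Prdm8 rose from P1 to P7 by 3.71 ± 0.72 (SE) on the log2 scale (limma, adjusted p = 0.00546), and the rise remained past the threshold with any 1 library left out (3.03 to 4.23). It fell by 2.85 ± 0.72 from P7 to P14 (limma, adjusted p = 0.0114). Without P14 replicate 2 this fall was 2.60 and missed the threshold (limma, adjusted p = 0.0568). From P7 to P28 it fell by 4.09 ± 0.72 (limma, adjusted p = 5.05e-04). From P14 to P28 the difference was -1.24 ± 0.72 (limma, adjusted p = 0.274), and -2.24 without P28 replicate 2, the library with 771 (limma, adjusted p = 0.0196). Between P28 and P1 the difference of -0.38 was not detectable over the spread (limma, adjusted p = 0.711), and it changed sign with edgeR (0.12) and DESeq2 (0.08). Among the Ddx3y-positive libraries, the one of P7 held 2729 and those of P1 97.2 to 519.5. The antisense gene A730035I17Rik shares 684 exonic bases with Prdm8 and B230104I21Rik shares 109 with Prdm16 below, and reads from these bases cannot be told apart either.

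Prdm8 alone made up 51.7% to 57.9% of the summed normalized counts of the 9 members at P7. Its share was 4.12% to 15.7% in the P1 libraries, 18.1% to 31.1% in those of P14, and 9.23% to 49.0% in those of P28. The summed level of the members lay between 2358 and 3309 in the P1 libraries, 5281 and 6489 for P7, 1518 and 2302 for P14, and 681 and 1575 for P28. The P7 sums stood above those of all other libraries, and P28 replicate 2, with its high Prdm8, stood apart from its group in the share.

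Prdm16 was highest at P1. It maintains neural stem cells and radial glia and is also known as a switch toward brown fat. The gene is on chromosome 4 (154316125 to 154636873, - strand). The normalized counts were 465, 352, and 299 at P1, 158, 171, and 84.5 at P7, 173, 115, and 163 at P14, and 35.1, 94.4, and 312 at P28. All P7 and P14 libraries were below all P1 libraries, but P28 was widely spread and overlapped with P1 through replicate 3. The P7 minus P1 difference was -1.47 ± 0.60 and missed the threshold (limma, adjusted p = 0.182), but passed it when only these 6 libraries were fitted (limma, adjusted p = 0.0101) or without P28 replicate 3 (limma, adjusted p = 0.0426). From P1 to P28, Prdm16 fell by 1.84 ± 0.60 (limma, adjusted p = 0.0291). This call did not hold with edgeR (adjusted p = 0.101), DESeq2 (adjusted p = 0.0621), or with P28 and P1 fitted alone (limma, adjusted p = 0.0977). It was also lost when any 1 of the 3 P1 libraries was left out, or P28 replicate 1 or 2 (limma, adjusted p of 0.0534 to 0.102), and the difference was -1.09 without P28 replicate 1. Among the Ddx3y-positive libraries, P28 held 35.1 and 94.4 and P1 299 to 465, without overlap.

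Prdm2, Prdm4, and Prdm15 declined with age. Prdm2, also known as RIZ, is a histone methyltransferase with tumor suppressor activity, and its gene is on chromosome 4 (143107391 to 143212995, - strand). It had normalized counts of 1012, 1042, and 1221 at P1 and 1244, 1217, and 1203 at P7, the smallest relative spread of the members in any group. The counts were 466, 866, and 668 at P14 and 403, 308, and 671 at P28. All libraries of P14 and P28 lay below all of P1 and P7, while P1 and P7 overlapped, as did P14 and P28. Prdm2 fell from P7 to P14 by 0.92 ± 0.28 (limma, adjusted p = 0.0281). The call was lost without any 1 of the P7 libraries and without P14 replicate 1 or 3 (limma, adjusted p of 0.0623 to 0.127, differences of -0.68 to -0.94). Between P1 and P28 it fell by 1.31 ± 0.28 (limma, adjusted p = 0.00213), a call that held with any 1 library left out and under every other setting tried.

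Prdm4, which binds the neurotrophin receptor and recruits the arginine methyltransferase Prmt5, lies on chromosome 10 (85891966 to 85917142, - strand). Its normalized counts were 478, 249, and 434 at P1, 392, 353, and 436 at P7, 168, 328, and 146 at P14, and 87.7, 124, and 63.6 at P28. The P28 libraries were below those of every other age. Prdm4 fell by 2.06 ± 0.39 from P1 to P28 (limma, adjusted p = 9.36e-04), also with any 1 library left out (-2.35 to -1.83). The single steps of -0.97 ± 0.39 from P7 to P14 (limma, adjusted p = 0.0939) and of -1.17 ± 0.39 from P14 to P28 (limma, adjusted p = 0.0566) missed the threshold. The first passed it without P14 replicate 2 (limma, adjusted p = 0.0375) and the second without P28 replicate 2 (limma, adjusted p = 0.0288). The P14 to P28 step also passed with DESeq2 (adjusted p = 0.0163).

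Prdm15, known from embryonic stem cells as a regulator of pluripotency and of brain patterning, lies on chromosome 16 (97791467 to 97851850, - strand). It had normalized counts of 223, 164, and 167 at P1, 215, 233, and 236 at P7, 112, 78.3, and 254 at P14, and 52.6, 37.7, and 29.8 at P28. P28 was below all other libraries, while P14 replicate 3 was as high as P7. From P1 to P28 it fell by 2.20 ± 0.46 (limma, adjusted p = 0.00203), and from P14 to P28 by 1.72 ± 0.46 (limma, adjusted p = 0.0229). The latter call was lost without P14 replicate 3 (-1.25, limma, adjusted p = 0.09996) and with P14 and P28 fitted alone (limma, adjusted p = 0.219).

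Prdm10 and Prdm11 passed in no comparison. Prdm10, on chromosome 9 (31280538 to 31381723, + strand), is a transcription regulator required in early embryos. Its libraries lay between 166.5 and 284 for P1, 282 and 369 for P7, 56.1 and 342 for P14, and 32.2 and 239 for P28, so the spread at P14 and P28 covered most of the levels seen earlier. The P28 minus P7 difference was -1.64 ± 0.68 (limma, adjusted p = 0.0712). Prdm11, on chromosome 2 (92965151 to 93046167, - strand), was barely detected, with 46, 33, 32, and 4 reads in all at P1, P7, P14, and P28 and normalized counts of at most 19.1. Its P28 minus P1 difference was -2.59 ± 0.97 (limma, adjusted p = 0.0514), and without P28 replicate 1, the only P28 library with reads, or without P14 replicate 2 it passed (-3.51 and -2.59, limma, adjusted p = 0.0108 and 0.0366).

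**Figure D2:**
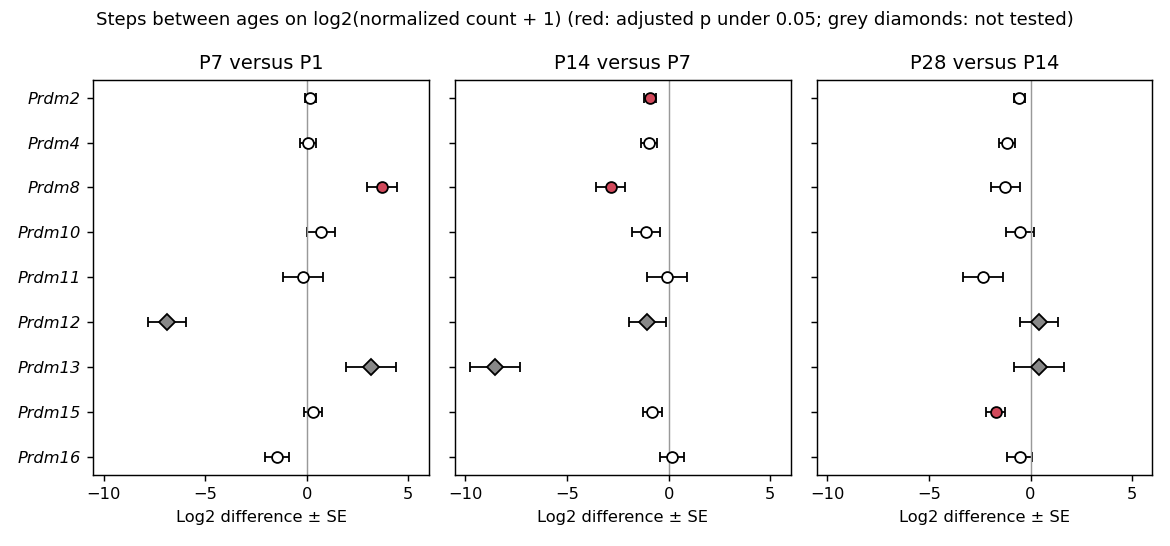
Log2 differences (horizontal axis, log2(normalized count + 1), later minus earlier age, ± SE from limma) of the 9 members in the 3 consecutive steps. Filled red circles passed an adjusted p of 0.05, open circles did not, and grey diamonds are Prdm12 and Prdm13, which were not tested and whose differences against libraries at 0 depend on the added count of 1; Prdm8 stands at 3.71 in the first step and -2.85 in the next.

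Counted together, 1 of the 7 members taken by name was called higher at P7 than at P1 (Prdm8), against 3.47% of the 15464 genes tested. From P7 to P14, 2 of 7 were called lower (Prdm2 and Prdm8) and none higher, with 10.0% of all genes called lower. From P14 to P28, 1 of 7 was called lower (Prdm15), with 8.76% of all genes. Between P1 and P28, 4 of 7 were called lower (Prdm2, Prdm4, Prdm15, and Prdm16) and none higher, with 20.0% of all genes called lower and 14.6% higher. With edgeR and DESeq2, 3 of 7 were called lower over this span. Between P7 and P28, 4 of 7 were called lower (Prdm2, Prdm4, Prdm8, and Prdm15), with 23.0% of all genes. The median difference of the 7 members was 0.17, -0.92, -1.17, and -1.84 in these comparisons, against 0.04, -0.09, -0.12, and -0.24 for all genes tested.

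Judged by the libraries alone, from P1 to P7 1 of 7 members moved up without overlap (Prdm8) and 1 down (Prdm16), against 20.1% and 18.2% of all genes. Downward moves without overlap were found in 3 of 7 from P7 to P14 (Prdm2, Prdm4, and Prdm8, 24.8% of all genes), in 2 of 7 from P14 to P28 (Prdm4 and Prdm15, 14.5%), and in 4 of 7 between P1 and P28 (Prdm2, Prdm4, Prdm11, and Prdm15, 24.0%). P14 lay below P1 without overlap in Prdm2 and Prdm16 (22.5% of all genes). P28 lay below P7 without overlap in all of the 7 but Prdm16 (28.1%). For the barely detected Prdm11 this was 5.85 at most at P28 against 6.20 at least at P7. At an unadjusted p under 0.05, 2, 3, 3, and 5 of 7 passed in the 3 steps and between P1 and P28, against 19.3%, 32.0%, 29.9%, and 44.8% of all genes. Adding a log2 change over 0.75 left 14.2% of all genes from P1 to P7 and 24.1% from P14 to P28. Called higher from P14 to P28 were 5.68% of all genes and none of the 7.

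Per kilobase of exon, the order of the members changed with age. At P1, Prdm2 (149.5 ± 15.5 SD normalized counts per kb), Prdm12 (99.5 ± 19.7), and Prdm4 (97.6 ± 30.7) led, and the spreads of Prdm12 and Prdm4 overlapped. Prdm8 led at P7 with 680.1 ± 107.8 per kb, followed by Prdm2 (167.2 ± 2.89), Prdm13 (126.7 ± 55.3), and Prdm4 (99.3 ± 10.4), of which the last 3 were within 1 SD of a neighbour. At P14, Prdm8 (98.9 ± 43.2) and Prdm2 (91.3 ± 27.4) were within their spread of each other, as they were at P28 (67.1 ± 79.9 and 63.1 ± 25.8). Prdm11 was below 1 count per kb at each age.

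**Figure D3:**
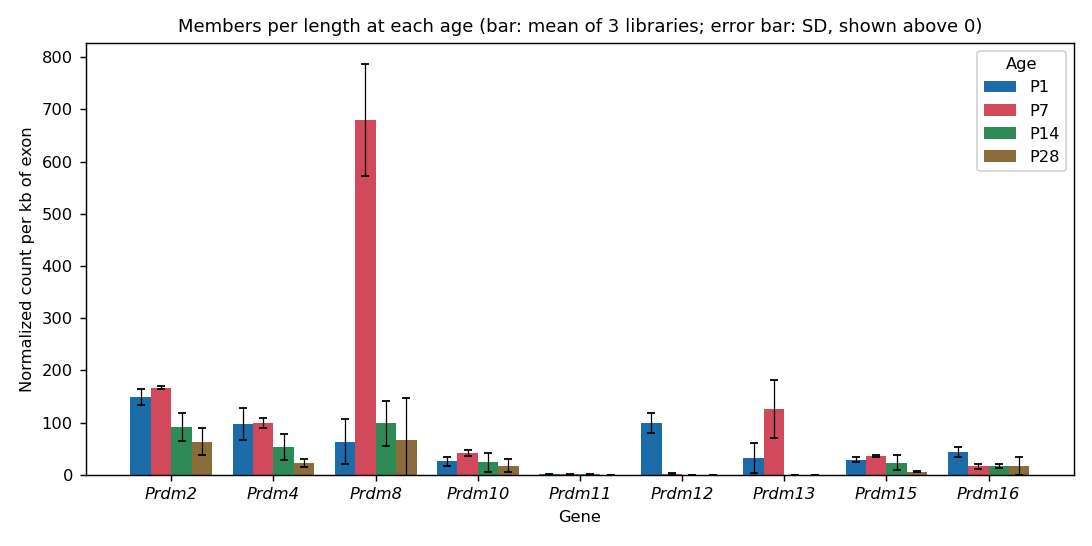
Mean normalized counts per kb of merged exon (vertical axis, linear from 0) of the 9 members, with a bar for each age and an error bar of 1 SD over 3 libraries. Prdm8 at P7 (680.1) exceeds every other bar, and Prdm2 at P7 (167.2) is the next.

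Family genes outside these 9 rarely passed a test. Of these, 5 could be tested, among them Prdm1, Mecom, Prdm6, and Prdm9, and 0 of 5 were called in any of the 4 comparisons by limma (0, 1, 1, and 0 at an unadjusted p under 0.05) or by edgeR (0, 1, 0, and 0). DESeq2, which covered 6 genes, called 1, Prdm6, between P7 and P14 (adjusted p = 0.0301). Mecom, the closest relative of Prdm16, had 55.8 to 326 at P7 and 20.3 to 126 at P28. Prdm14, a germ cell and pluripotency gene, reached at most 9.30 and was tested with DESeq2 only, without a call.

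Genes linked to Prdm12 in progenitor domains formed a list of 11, of which 9 could be tested. From P1 to P7, 2 of 9 were called lower (Dbx1 and Pax7) and 1 higher (Pax6), beside 4.24% and 3.47% of all genes. Dbx1, which Prdm12 represses in the spinal cord, had normalized counts of 45.5, 56.4, and 59.8 at P1, 1.31 in 1 P7 library, and 0 in the other 8. Its ratio of P1 to P7 was 177 (interval 31.4 to 7010). Like Prdm12, Dbx1 passed the filter on low values through its P1 libraries alone, so it had to differ and its call, counted above, supports nothing. Nkx6-1, also among the 9, passed the filter in the same way but was not called (limma, adjusted p = 0.0583). Prdm12 and Dbx1 were thus both confined to P1 except for 10 and 1 reads at P7 and 1 read of Prdm12 at P28. Pax3 and Pax6, the most abundant genes of the list, remained at 320 or more and 162 or more in all libraries, and the Pax6 rise of 1.63 ± 0.47 (limma, adjusted p = 0.0462) was lost without any 1 of 8 libraries, among them all of P7 and P14 and P1 replicates 1 and 2 (limma, adjusted p of 0.0572 to 0.199). Pax7 was likewise lost without any 1 of the P1 or P7 libraries (limma, adjusted p of 0.0988 to 0.157). Nkx6-2 rose from P7 to P14 by 2.75 ± 0.77 (limma, adjusted p = 0.0207), but not without P7 replicate 2 or 3 or P14 replicate 1 (limma, adjusted p of 0.0514 to 0.0931).

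Most genes of a list around Prdm13, drawn up for the GABAergic lineage, changed in the same step as Prdm13. The list also held Tlx3 and Lmx1b, genes of glutamatergic fates. These were not called from P7 to P14 (limma, adjusted p = 0.746 and 0.270). Of 19 genes 16 could be tested, and 13 of 16 were called lower from P7 to P14 with none higher, against 10.0% of all genes (median -4.57). They included Gad1, Gad2, Gsx1, Kirrel2, Lhx5, Neurog1, Neurog2, Pax2, Ptf1a, Slc32a1, Tfap2a, and Tfap2b, and 12 to 14 were called with any 1 library left out. Of these, Gsx1, Neurog1, Neurog2, and Ptf1a passed the filter on low values through P1 and P7 libraries alone. Lhx5 also needed those ages to pass, as later only P14 replicate 2 (21.2) and P28 replicate 1 (32.2) reached 10. The calls of all these genes, Lhx5 included, had to fall in this direction and, as for Dbx1, support nothing. The 13 of 16 thus overstates the comparison with all genes. Ptf1a, which initiates the GABAergic program and acts upstream of Prdm13, had 35.1, 0.71, and 44.7 normalized counts at P1 and 104, 48.4, and 95.3 at P7, and 0 at P14. It passed the filter through P1 and P7 libraries, and was at least 25.8-fold lower at P14 than at P7 against the floor of 3 reads per library. Tfap2b, a factor of GABAergic interneurons and their progenitors, held 4575, 1864, and 4317 at P7 and 69.9, 146, and 41.3 at P14. It fell by 5.45 ± 0.67 (limma, adjusted p = 5.12e-05). From P1 to P7, 2 of 16 were called higher, Gad1 and Gad2, which make GABA, beside 3.47% of all genes (median 2.45, against 0.04 for all genes). This count was 7 without P1 replicate 3 or P28 replicate 3, 5 without P28 replicate 2, 4 without P28 replicate 1, and 1 without P1 replicate 1 or 2, any P7 library, or P14 replicate 1.

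P1 replicate 2 was low for several genes of this group as it was for Prdm13. Beside 2.14 for Prdm13 it held 0.71 for Ptf1a, 5.001 for Neurog2, and 207 for Tfap2b, while P1 replicates 1 and 3 held 97.8 and 157 for Neurog2 and 844 and 1799 for Tfap2b. Gad2, Neurog1, Skor2, and Lmx1b of the same list were not lowest there, with Gad2 at 102.9 against 75.7 in replicate 1. Lmx1b was highest there (38.6, against 18.5 and 5.30 in replicates 1 and 3). Prdm8 was lowest there among the P1 libraries, and so were some genes outside this group. Gdf10, an astrocyte marker, held 296.5 there, against 1341 and 1536 in replicates 1 and 3. Pax6 held 161.5, against 547 and 579, and the dividing cell markers summed to 7183, against 12996 and 13225. The low values were thus not particular to the genes around Prdm13. Prdm12 and Dbx1 were not low in this library, with 279 and 56.4. Its endothelial and pericyte marker sum was 3617, against 1314 and 1398 in the other P1 libraries, and the part of this in the low values was not tested.

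The list of Prdm8 partners had 3 genes, and Bhlhe22 and Cdh11 could be tested. Bhlhe22, the partner of Prdm8 in its repressor complex, had normalized counts of 25.2, 20.0, and 91.6 at P1 and 459, 327, and 395 at P7, then 31.8, 59.2, and 115 at P14 and 33.6, 55.4, and 220 at P28. Its P7 libraries did not overlap with those of other ages, as for Prdm8. Bhlhe22 rose from P1 to P7 by 3.40 ± 0.74 (limma, adjusted p = 0.0104) and fell from P7 to P14 by 2.68 ± 0.74 (limma, adjusted p = 0.0181). The rise was lost without P1 replicate 1 or 2 (limma, adjusted p = 0.0532 and 0.0566) and the fall without P7 replicate 1 or 3 or P14 replicate 1 or 2 (limma, adjusted p of 0.0543 to 0.0782). The 2 genes parted at P28, where Prdm8 was highest in replicate 2 and Bhlhe22 in replicate 3. Cdh11, a cadherin repressed by the complex, fell by 1.03 ± 0.20 from P1 to P7 (limma, adjusted p = 0.00456), from between 2020 and 3183 to between 1111 and 1501, and this call held with any 1 library left out.

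**Figure D4:**
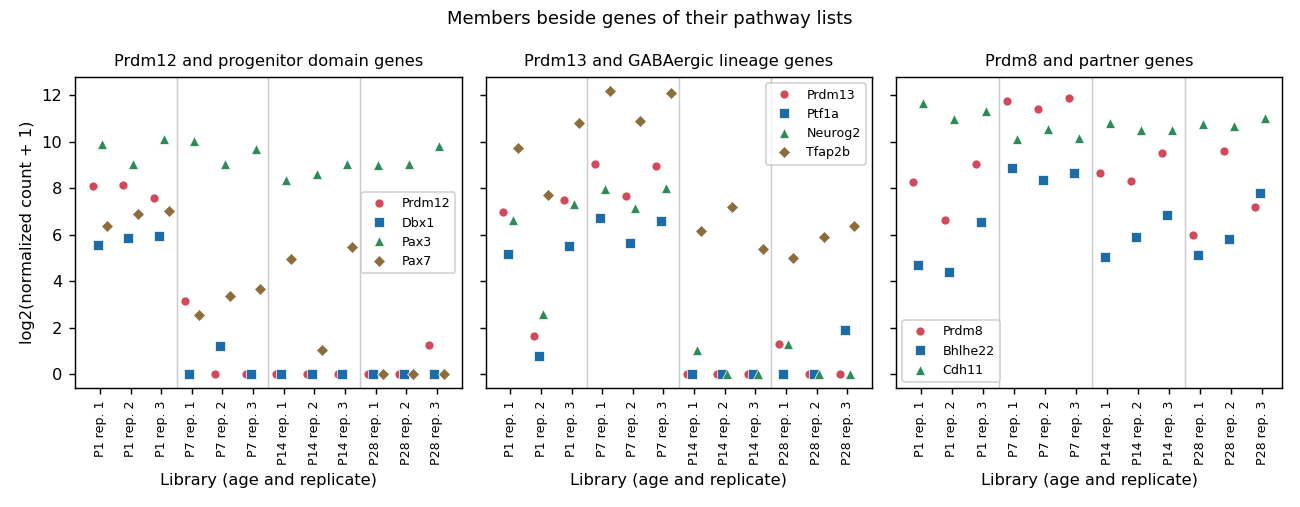
Levels as log2(normalized count + 1) (vertical axis) in each of the 12 libraries (horizontal axis, grouped by age) of Prdm12 with Dbx1, Pax3, and Pax7, of Prdm13 with Ptf1a, Neurog2, and Tfap2b, and of Prdm8 with Bhlhe22 and Cdh11. P1 replicate 2 is low for Prdm13, Ptf1a, and Neurog2 but not for Prdm12 and Dbx1.

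Co-factors that PRDM proteins recruit were all detected. Of 20 such genes, 8 were called lower from P7 to P14 (Eed, Ehmt1, Ezh2, Hdac2, Kdm1a, Skil, Suv39h2, and Suz12) and 3 higher (Ski, Smad3, and Ppargc1a), beside 10.0% and 10.8% of all genes. The total was 6 or 7 without any 1 P7 library or P14 replicate 2. Ezh2, the catalytic subunit of Polycomb repressive complex 2, fell from between 1016 and 1166 to between 199 and 216 normalized counts, by 2.38 ± 0.31 on the log2 scale (limma, adjusted p = 8.28e-05). Hdac2, a histone deacetylase, fell by 1.63 ± 0.22 (limma, adjusted p = 1.23e-04), from between 1133 and 1199 to between 365 and 389. The related SMAD repressors Skil and Ski went opposite ways. Skil fell by 1.14 ± 0.17 (limma, adjusted p = 3.08e-04), and Ski rose by 0.67 ± 0.18 (limma, adjusted p = 0.0170), a call lost without P7 replicate 1 or 3 or P14 replicate 2 or 3 (limma, adjusted p of 0.0513 to 0.0631) and under scaling by library totals (0.42, limma, adjusted p = 0.123). Between P1 and P28, 9 of 20 were called lower and 2 higher, beside 20.0% and 14.6% of all genes, and the total was 7 without P1 replicate 1 or 3. From P1 to P7 0 of 20 passed by limma, with 8 at an unadjusted p under 0.05, beside 19.3% of all genes.

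Genes whose levels ran most like those of a member were sought by Pearson r of log2(normalized count + 1) over the 12 libraries, which share their ages, among the 15463 other genes tested. Prdm12 was followed by Sp9 (r = 0.988), Fndc3c1 (0.973), and Foxa2 (0.953), with Dbx1 in place 5 (0.948) and Hoxa2 at 0.590. For Prdm13 the 3 nearest were Neurog2 (0.993), Atoh1 (0.986), and Ptf1a (0.975), of which Neurog2 and Ptf1a belong to the GABAergic list and Atoh1 marks granule neuron precursors. For Prdm8 there were Cbfa2t3 (0.960) and Creb1 (0.947) among the first 3, while Bhlhe22 was at 0.762. Prdm15 was nearest to Gm12504 (0.981), Nom1 (0.977), and Sh3bp4 (0.976), Prdm2 to Cenpn (0.985), Lppr1 (0.956), and Eri1 (0.955), and Prdm4 to Tyw3 (0.972), Mms22l (0.962), and Sema6a (0.960). Prdm10 was nearest to Naa20 (0.932), Ranbp17 (0.918), and Prps1 (0.915), and Prdm16 to 2410004P03Rik (0.936), Elmsan1 (0.912), and Chst7 (0.889). For the barely detected Prdm11 they were Rec8 (0.946), Oas2 (0.941), and A230070E04Rik (0.941). Sp9, Neurog2, Cbfa2t3, and Gm12504 kept their place among the first 3 in all 16 alternatives tried, while Foxa2 did so in 2, Sema6a in 3, Chst7 in 4, Lppr1 in 5, and Ptf1a in 6. Prdm12 and Prdm13 were chosen for their patterns over age. Genes confined to the same ages had to lie near them, so these places are a description only.

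Markers of other cell types moved with several of these results. All 5 GABAergic interneuron markers were detected, with summed normalized counts between 310.1 and 1505 in the P1 libraries, 2451 and 5335 for P7, 305 and 439.8 for P14, and 172 and 471 for P28, so they peaked with Prdm8 and Prdm13. Of the 5, 4 are also on the list around Prdm13. Each of the 5 was called lower from P7 to P14, beside 10.0% of all genes. Slc6a5 needed its P1 and P7 libraries to pass the filter on low values. Later only P28 replicate 2 (10.6) reached 10, so the Slc6a5 call supports nothing. The 5 markers of dividing cells, all detected, summed to between 7183 and 13225 in the P1 libraries, 17388 and 23324 for P7, 583 and 1108 for P14, and 16.5 and 77.5 for P28. These sums also peaked at P7, as Prdm8 and Prdm13 did. After P7 they fell, as did Prdm2, Prdm4, Prdm15, and Ezh2. The 5 granule neuron markers, also all detected, summed to between 323 and 610.3 in the P1 libraries, 2545 and 4530 for P7, 8158 and 17587 for P14, and 5312 and 6831 for P28. The 4 ependymal and choroid plexus markers, all detected, summed to between 797 and 1703 in the P1 libraries and 47382 and 126136 for P7. Their sums spread between 1041 and 107932 for P14 and 17560 and 180079 for P28. Most of the sum was Ttr, the transthyretin gene of the choroid plexus, from P7 on. Only Ttr rose in the same step as Prdm8, with means of 398.6 at P1 and 77688 at P7 (limma, adjusted p = 0.00289). Foxj1 of the same list was called lower in this step, with means of 778 and 183 (limma, adjusted p = 0.0478). Ccdc153 and Tmem212 were not called, and their P1 and P7 libraries overlapped. The part of these cell types in the results was not tested.

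Genes of neighbouring tissues known for Prdm12 were also measured. The 11 Hox genes that mark the hindbrain behind the cerebellum summed to 217, 0.71, and 106 in the P1 libraries and to at most 28.8 later, with Hoxc5 at 0 throughout. Prdm12 held 269, 279, and 190 in the same P1 libraries. The 5 sensory neuron markers summed to 30.7 to 45.4 at P1, 11.2 to 37.2 at P7, and at most 2.12 from P14, with the nociceptor channel Scn10a at 0 in all libraries. The part of such tissues in the Prdm12 values was not tested.

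**Figure D5:**
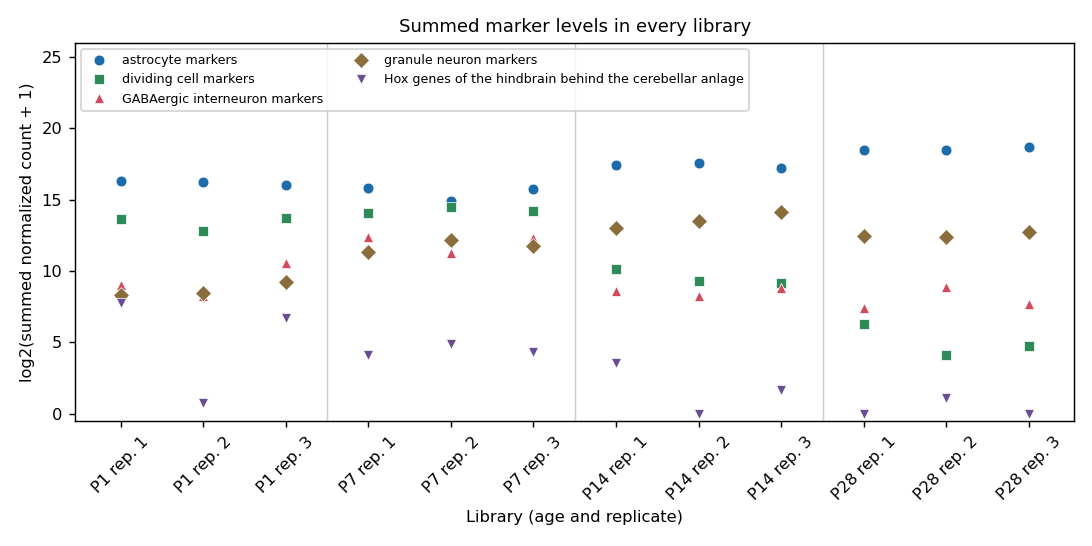
Summed levels of 5 marker lists as log2(summed normalized count + 1) (vertical axis) in each of the 12 libraries, grouped by age. GABAergic interneuron markers peak at P7 (2451 to 5335), dividing cell markers fall from at least 17388 at P7 to at most 77.5 at P28, and Hox genes are at 0.71 in P1 replicate 2.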

How the data were processed

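RNA of GFP-positive cerebellar cells was sequenced in 3 libraries at each of 4 ages. The authors aligned reads to mm10 with STAR (version 2.5.0a), counted them per gene, and normalized the counts with DESeq2 (version 1.30.1). The deposited values are a signal on the scale of counts divided by 1 size factor per library. Dividing by the smallest value above 0 returned whole reads for 100% of values (tolerance 0.02), 6399499 to 14733985 per library. How the authors used strand, or reads shared between genes, is not given in the sources used here. Columns were assigned by the names in the labels. All names carry P28, a part that was not used, so the ages rest on the labels.

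Differences were tested on log2(value + 1) with limma 3.58.1 in R 4.3.3, using a variance trend, a mean per age, and 1 fit over the 12 libraries. It covered 15464 genes with at least 10 in at least 3 libraries. Calls were made at a Benjamini-Hochberg adjusted p under 0.05 over all genes tested. edgeR (version 4.0.16, quasi-likelihood, TMM) and DESeq2 (version 1.42.0) were run on the recovered reads as alternatives, beside other scalings, pseudocounts, filters, sets of libraries, a replicate block, and an unadjusted p under 0.05 with a log2 change over 0.75. The fit was tested on simulated data. Ratios and floors rest on reads, with exact intervals at 95%.

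Exon lengths and positions came from GENCODE M21 on GRCm38, with all 9 members matched by symbol, and upstream sequences from RefSeq on GRCm38.p6. Named genes were all members and the 6 PRDM genes outside them, the 3 genes with the highest r to each member, and, for each list of partners, the 2 most abundant genes and the 2 with the smallest adjusted p in a consecutive step. Marker lists were given by their sums. Other genes named, such as Pax7, Gad1, Gad2, Ptf1a, Neurog2, Ddx3y, Xist, and those in counts or single markers, were chosen after their values were seen. The members and lists were chosen with earlier results of these data known. Alternatives for the partner lists were added after seeing the data. For 2 of the pairs of ages, P1 with P14 and P7 with P28, only the unadjusted threshold was added in this way. No other tool, setting, or left-out library was tried for these 2 pairs. Some genes that these rules name are not reported here.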

Additional observations from a re-analysis of the deposited data

How the results depend on the processing

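Of the calls on single members, the Prdm8 rise to P7 and the falls of Prdm2, Prdm4, and Prdm15 between P1 and P28 held under all settings tried. From P1 to P7, 2 members were called in place of 1 with only the 2 ages fitted and under the unadjusted threshold. From P14 to P28, 2 were called with DESeq2 and with library totals, 0 with only the 2 ages fitted, and 3 under the unadjusted threshold, in place of 1. With 1 library left out, the counts of members were 1 to 2 (P1 to P7), 1 to 2 (P7 to P14), 0 to 3 (P14 to P28), and 3 to 5 (P1 to P28). The P1 to P7 count was 2 without P28 replicate 3. The P14 to P28 count was 0 without P14 replicate 3, 2 without P28 replicate 1 or 3, and 3 without P28 replicate 2.

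Differences of uncalled members changed sign in Prdm11 from P7 to P14 (main -0.08, edgeR 0.25, DESeq2 0.23, pseudocount 10 0.053), in Prdm16 from P7 to P14 (main 0.17, library totals -0.088), and in Prdm8 between P1 and P28 (main -0.38, edgeR 0.12, DESeq2 0.081). The cause was not tested. With 1 library left out, the ranges that crossed 0 were -0.21 to 0.26 (Prdm4) and -0.52 to 0.067 (Prdm11) from P1 to P7, -0.61 to 0.73 (Prdm11) and -0.15 to 0.36 (Prdm16) from P7 to P14, -1.22 to 0.32 (Prdm10) and -1.34 to 0.21 (Prdm16) from P14 to P28, and -1.39 to 0.41 (Prdm8) between P1 and P28.

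Scaling by library totals moved the median of all genes from -0.24 to -0.66 between P1 and P28, from -0.09 to -0.34 between P7 and P14, and from -0.12 to -0.35 between P14 and P28. Of all calls, 42.3% were higher between P1 and P28 (21.0% under library totals), 51.9% between P7 and P14 (33.0%), and 39.3% between P14 and P28 (19.1%). TMM left these medians within 0.02 of the main values.

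Of the genes around Prdm12, 3 were called from P1 to P7, and 1 with edgeR, pseudocount 0.1, no filter, or at least 10 in every library (1 to 3 with 1 library left out, and 1 without P1 replicate 1 or 2 or any P7 library). Of the genes around Prdm13, 2 were called from P1 to P7, and 5 with DESeq2, 4 with library totals, 9 with pseudocount 10, 11 with only the 2 ages, and 10 under the unadjusted threshold (1 to 7 with 1 library left out). From P7 to P14, 13 were called, and 4 with at least 10 in every library, where fewer genes were tested (12 to 14 with 1 library left out). The Prdm8 partners called were 1 to 2 and 0 to 1 in these steps with 1 library left out. The 11 co-factors called between P1 and P28 became 17 with library totals and 7 with only the 2 ages (7 to 12 with 1 library left out), and from P7 to P14 the range was 6 to 14. Of the 27 nearest genes, 17 were kept with pseudocount 0.1 and 10 to 21 with 1 library left out.

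The labels give the replicate numbers no shared animal or day, and the libraries were treated as unpaired. Deviations from the age means of libraries with the same number had r of -0.03 to 0.14 over 18 pairs (median 0.03, against -0.01 for other numbers), and 9 of 12 libraries correlated best with their own number, a hint of shared deviations from the data and not from the design. With the replicate block, 1, 2, 1, and 5 members were called in the 4 comparisons, Prdm11 being added between P1 and P28 (-2.59, limma, adjusted p = 0.0392). The block also ended the calls of Pax7 (limma, adjusted p = 0.0503) and Gad1 (limma, adjusted p = 0.0534) from P1 to P7. Depth limits Prdm11, and any gene under 3 reads in a library.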
